A study of Mus musculus with 6 samples.

Results

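Mast cells and basophils are sparse effector cells of allergy and of defence against parasites, and both arise from progenitors in the bone marrow. They bind IgE through a high-affinity receptor and keep granules filled with histamine, serine proteases and a carboxypeptidase, which they release when the receptor is cross-linked. Of the 9 genes described here, all but Cyp11a1 encode parts of that equipment. Fcer1a and Ms4a2 encode 2 subunits of the IgE receptor, and Mcpt8, Prss34, Cpa3 and Gzmb granule proteases. Hdc and Slc18a2 serve the synthesis and storage of histamine and other amines. Cyp11a1 encodes a steroid-forming enzyme. The 9 genes were taken by symbol from the count table, where all 9 of 9 were found among 26027 genes, and all 9 had enough counts to be tested.

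Libraries came from Lin-/cKit+/eYFP+ bone marrow cells, which carry the stem cell factor receptor and lack the surface antigens of mature lineages. There were 3 libraries of Srsf2 P95H/+ cells, heterozygous for a substitution that recurs in human myeloid neoplasms, and 3 of Srsf2 +/+ (wild-type) cells. C57BL/6 mice of both genotypes carried hScl-CreERT, a tamoxifen-dependent Cre named after the blood transcription factor Scl, and R26eYFP, the reporter of recombination, and both received tamoxifen in vivo. Replicates 1 and 2 of P95H/+ were female and replicate 3 male, all at 32 weeks. Wild-type replicate 1 was female and 54 weeks old, and replicates 2 and 3 were male and 32 weeks old. The labels call the cells immature and multipotent. They do not say that each library is a mouse of its own, so the spread behind the p-values may be partly technical.

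The libraries held 10747941 to 22614408 counts in P95H/+ and 16842751 to 23010510 in wild type. Kit, the antigen used in the sort, was at 476 to 548 CPM (a count divided by its library's total and set to one scale) in P95H/+ and 482 to 532 CPM in wild type. Srsf2 averaged 331 ± 14.2 CPM in the P95H/+ libraries, against 332 ± 9.79 CPM in those of wild type (SD, n = 3 each), and such counts cannot show the substitution. Replicate 3 of both genotypes stood apart: where transcripts had 40% GC or less, the median log2 deviation from the mean over the libraries was -0.81 for the P95H/+ one and -0.47 for the wild-type one, against 0.27 to 0.43 for the other 4 libraries. Fold changes of the 9 genes and of the list genes named are therefore given with and without these 2 libraries.

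The promoter windows of 4 of the genes are shown because these genes carry the patterns described below: Ms4a2 and Fcer1a, whose levels ran together over the libraries, Cpa3, which had the largest difference between genotypes, and Hdc, which ran the other way. Each window reaches from 250 bases before to 50 bases after the start that RefSeq gives on GRCm38.p6, the assembly of mm10. RefSeq starts need not be those of the GENCODE bounds given for the genes below. For Hdc the GENCODE start lies further upstream, outside the window. All 4 lie on the minus strand and are written 5′ to 3′, Ms4a2 at chr19:11623670-11623969, Fcer1a at chr1:173227180-173227479, Cpa3 at chr3:20242132-20242431 and Hdc at chr2:126618629-126618928. Capitals mark letters of 4 motifs searched on both strands, and no match in the 4 windows overlapped one of another motif. For GATA factors the letters were AGATAA, or with a final guanine AGATAG, and the forms that begin with thymine, TGATAA or with a final guanine TGATAG. For MITF they were CACATG and, as the other spelling, CACGTG. For C/EBP they were TTGCNNAA, and for STAT5 TTCNNNGAA.
Ms4a2: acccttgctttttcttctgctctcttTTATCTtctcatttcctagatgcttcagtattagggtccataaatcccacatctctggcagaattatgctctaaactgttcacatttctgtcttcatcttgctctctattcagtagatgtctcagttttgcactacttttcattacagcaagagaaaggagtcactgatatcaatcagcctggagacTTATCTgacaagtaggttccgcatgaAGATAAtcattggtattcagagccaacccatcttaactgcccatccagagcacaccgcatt
Fcer1a: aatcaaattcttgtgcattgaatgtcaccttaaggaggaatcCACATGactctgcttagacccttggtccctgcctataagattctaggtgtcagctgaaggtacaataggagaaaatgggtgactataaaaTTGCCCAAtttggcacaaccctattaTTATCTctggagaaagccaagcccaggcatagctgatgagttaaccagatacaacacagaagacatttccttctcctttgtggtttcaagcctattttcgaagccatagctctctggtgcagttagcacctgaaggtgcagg
Cpa3: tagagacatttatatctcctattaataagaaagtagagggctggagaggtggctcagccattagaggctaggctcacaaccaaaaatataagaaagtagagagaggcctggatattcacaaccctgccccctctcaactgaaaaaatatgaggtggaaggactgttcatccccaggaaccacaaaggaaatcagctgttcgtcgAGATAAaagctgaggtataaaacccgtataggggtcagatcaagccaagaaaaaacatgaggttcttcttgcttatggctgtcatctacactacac
Hdc: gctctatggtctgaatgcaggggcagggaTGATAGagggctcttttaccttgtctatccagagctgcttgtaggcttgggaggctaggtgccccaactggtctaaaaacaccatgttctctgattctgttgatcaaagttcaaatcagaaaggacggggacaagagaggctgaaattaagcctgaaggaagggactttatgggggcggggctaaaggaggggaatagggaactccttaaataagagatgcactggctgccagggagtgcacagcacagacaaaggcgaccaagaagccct

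A GATA motif was found in the first listed window of 6 of 9 genes and in 29.8% of 32841 promoter windows of this length in the table. Ms4a2 held 3, which begin 224, 37 and 11 bases before the start, Cpa3 1 at 46 bases and Fcer1a 1 at 92 bases, and Hdc had 1 at 221 bases. The MITF letters were in 3 of 9 windows (20.4% of all), among them that of Fcer1a at 208 bases before the start. The C/EBP letters were in 1 of 9 (10.8% of all), again in Fcer1a at 118 bases, and the STAT5 letters in 1 of 9 (8.30% of all), in Gzmb. Mcpt8 held none of the 4 in its window. A match describes the letters and does not show that a factor binds there.

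**Figure D1:**
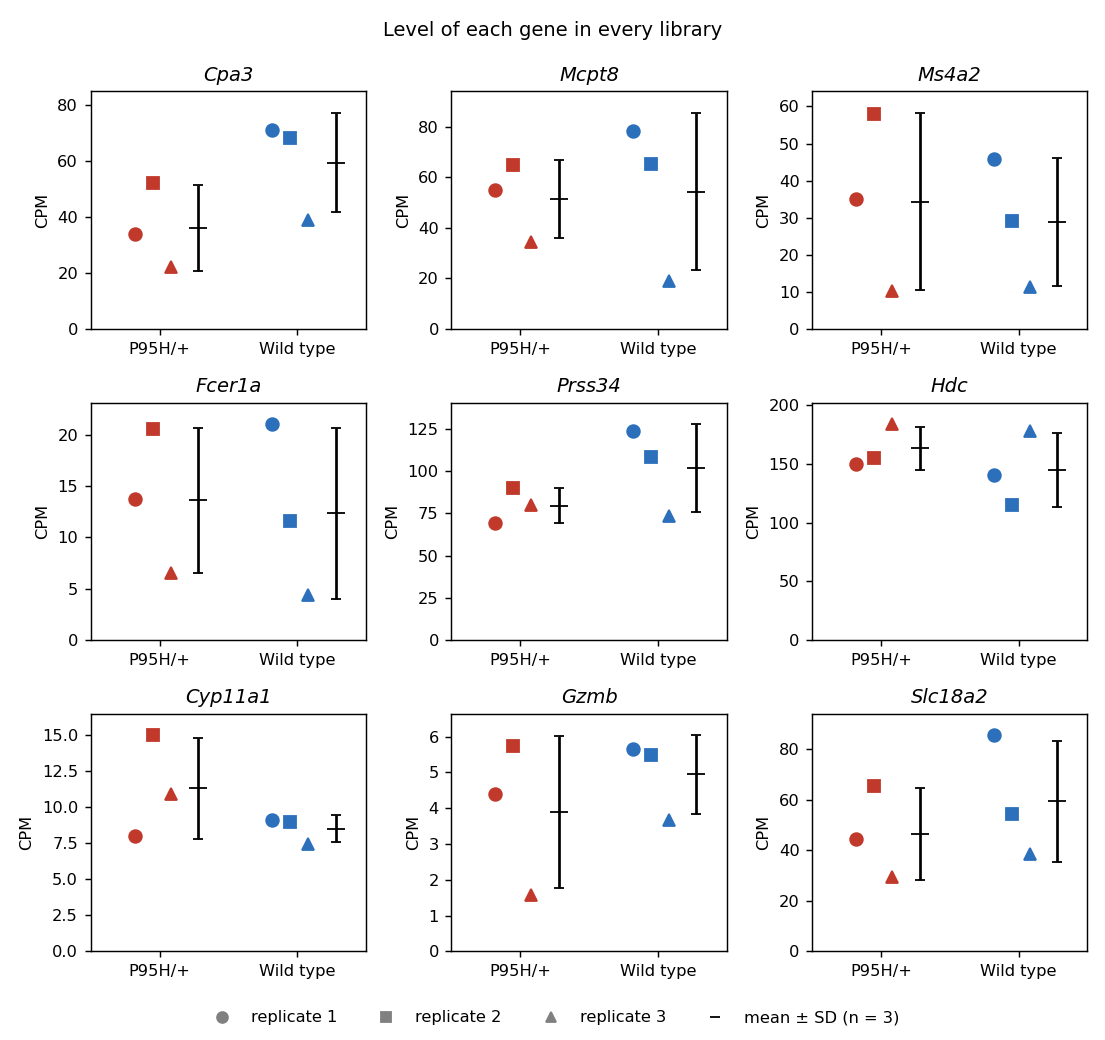
CPM of each gene in every library, P95H/+ in red and wild type in blue, with the replicate number as the symbol and the mean ± SD of 3 libraries as a black bar. For all 9 genes the values of the genotypes overlap, and the replicate 3 libraries lie below the other 4 for Mcpt8, Ms4a2, Fcer1a, Gzmb and Slc18a2 but above them for Hdc.

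Over all 6 libraries, 0 of the 9 genes differed between P95H/+ and wild type by the quasi-likelihood F test of edgeR (Benjamini-Hochberg adjustment over all genes, threshold 0.05, two-sided). No gene of the table did either: 0 of 17144 tested genes passed (0%). At an unadjusted p under 0.05 there were again 0 of the 9, against 361 of the 17144 (2.11%). The CPM values of the genotypes did not overlap for 0 of the 9 genes and for 1344 of the 17144 (7.84%). DESeq2 called 8 genes and limma voom 0, with 332 and 362 at an unadjusted p under 0.05, and none of the calls was one of the 9. The median log2 fold change of P95H/+ over wild type was -0.02 over the 9 genes, 4 of them positive and 5 negative, and 0.02 over all genes tested. This median moved with the libraries and the model: it was -0.42 without wild-type replicate 3 (2 positive, 7 negative) and 0.23 without wild-type replicate 1 (6 positive, 3 negative), and -0.33 with sex in the model (2 positive, 7 negative). Bulk libraries do not tell apart a different number of mast cell and basophil precursors among the sorted cells and a different amount of these transcripts per cell.

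The receptor subunits were the most variable of the 9 between libraries. Ms4a2 (ENSMUSG00000024680, mm10 chromosome 19, 11615523 to 11623719, minus strand) encodes the beta subunit, which amplifies the signal of the receptor. It was at 35.1, 57.8 and 10.1 CPM in P95H/+ replicates 1, 2 and 3 and at 45.8, 29.2 and 11.3 CPM in those of wild type. The highest and the lowest library were both P95H/+, and they differed 5.70-fold. P95H/+ over wild type, its log2 fold change was 0.31 (SE 0.66, 95% interval -1.24 to 1.86, adjusted p 1 by edgeR).

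Fcer1a (ENSMUSG00000005339, chromosome 1, 173221284 to 173227214, minus strand) encodes the alpha subunit, which binds IgE. It was at 13.7, 20.6 and 6.51 CPM in P95H/+ and at 21.03, 11.6 and 4.39 CPM in wild type. As for Ms4a2, P95H/+ replicate 2 and wild-type replicate 1 were the 2 highest libraries, P95H/+ replicate 1 came next, then wild-type replicate 2, and both replicate 3 libraries were lowest. Its log2 fold change was 0.20 (SE 0.59, 95% interval -1.18 to 1.59, adjusted p 1 by edgeR). The intervals of both subunits include 2-fold differences in both directions. Fcer1g, the gamma subunit shared with other Fc receptors, was steadier, at 42.0 to 50.5 CPM in P95H/+ and 34.6 to 58.6 CPM in wild type, with a log2 fold change of -0.06 (SE 0.25), and -0.25 (SE 0.09) without replicate 3 of both genotypes.

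Among the proteases, Cpa3 (ENSMUSG00000001865, chromosome 3, 20215620 to 20242181, minus strand), the granule carboxypeptidase of mast cells and their progenitors, had the largest difference of the 9 genes. It was at 33.9, 52.3 and 22.1 CPM in P95H/+ and at 71.0, 68.1 and 39.0 CPM in wild type. Within each replicate number the P95H/+ library was below the wild-type one, yet the groups overlapped, since P95H/+ replicate 2 lay above wild-type replicate 3. Means were 36.1 ± 15.2 CPM for P95H/+, against 59.4 ± 17.7 CPM for wild type (SD, n = 3 each). P95H/+ over wild type, this was a log2 fold change of -0.66 (SE 0.36, 95% interval -1.505 to 0.19, unadjusted p 0.11 and adjusted p 1 by edgeR). With the replicate number as a block it was -0.68 (SE 0.16, 95% interval -1.04 to -0.32, unadjusted p 0.00233 and adjusted p 0.665 by edgeR), and Cpa3 was the 1 of the 9 genes with an unadjusted p under 0.05 in that fit, against 945 of the 17144 (5.51%). For replicates 1 and 2 that block rests on the numbering alone. Mir7007, a microRNA gene on the same strand, lies within the bounds of Cpa3.

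Prss34 (ENSMUSG00000056399, chromosome 17, 25298394 to 25300165, plus strand) encodes a tryptase-like serine protease of mouse basophils. It was at 69.1, 89.6 and 79.7 CPM in P95H/+ and at 124, 108 and 73.3 CPM in wild type. Wild-type replicates 1 and 2 were above every P95H/+ library, and wild-type replicate 3 was within their range. On the log2 scale the fold change was -0.29 (SE 0.25, adjusted p 1 by edgeR).

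Mcpt8 (ENSMUSG00000022157, chromosome 14, 56082166 to 56085273, minus strand) encodes a granule protease that in the mouse marks basophils. It was at 54.95, 64.6 and 34.5 CPM in P95H/+ and at 78.3, 65.3 and 19.1 CPM in wild type. The highest and the lowest library were both wild type, so the wild-type values enclosed those of P95H/+. Its log2 fold change was -0.02 (SE 0.50, 95% interval -1.18 to 1.15, adjusted p 1 by edgeR), and its sign turned to 0.013 with DESeq2's size factors in place of TMM scaling.

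Gzmb (ENSMUSG00000015437, chromosome 14, 56258838 to 56262260, minus strand) encodes granzyme B, a protease of cytotoxic lymphocytes that mouse mast cells also make, and it lies on the same chromosome and strand as Mcpt8. It had the fewest counts of the 9, with 95, 130 and 17 counts in P95H/+ and 130, 116 and 62 in wild type. This came to 4.38, 5.75 and 1.58 CPM in P95H/+ and 5.65, 5.50 and 3.68 CPM in wild type. The 17 counts of P95H/+ replicate 3 have an exact 95% binomial interval of 0.921 to 2.53 CPM, which covers counting error only and lies below the interval of wild-type replicate 3 (2.82 to 4.72 CPM). The other 2 P95H/+ libraries lay above wild-type replicate 3. Its log2 fold change was -0.26 (SE 0.44, adjusted p 1 by edgeR).

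Of the amine genes, Hdc (ENSMUSG00000027360, chromosome 2, 126593667 to 126619299, minus strand) encodes histidine decarboxylase, which makes histamine. It was at 150.3, 155 and 184 CPM in P95H/+ and at 141, 115 and 178 CPM in wild type. It was the steadiest of the 9, with 1.59-fold between the highest and the lowest library, and the replicate 3 libraries were the highest of both genotypes. Within each replicate number the P95H/+ library was above the wild-type one. The log2 fold change was 0.25 (SE 0.22, 95% interval -0.26 to 0.77, adjusted p 1 by edgeR).

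Slc18a2 (ENSMUSG00000025094, chromosome 19, 59260896 to 59296012, plus strand) encodes the vesicular monoamine transporter that loads amines into granules. It was at 44.6, 65.6 and 29.4 CPM in P95H/+ and at 85.5, 54.3 and 38.5 CPM in wild type. The order of the libraries differed from that of Hdc, with wild-type replicate 1 highest and both replicate 3 libraries lowest. On the log2 scale the fold change was -0.29 (SE 0.37, adjusted p 1 by edgeR). Gm29261, an antisense gene, overlaps Slc18a2 on the minus strand, so reads of that gene could enter the count if strand was not used.

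Cyp11a1 (ENSMUSG00000032323, chromosome 9, 58006411 to 58027023, plus strand) encodes the enzyme that cleaves the side chain of cholesterol in the first step of steroid synthesis. It was at 8.03, 15.0 and 10.9 CPM in P95H/+ and at 9.13, 8.96 and 7.48 CPM in wild type. P95H/+ replicates 2 and 3 were above every wild-type library, and P95H/+ replicate 1 was below wild-type replicates 1 and 2. It had a fold change of 0.48 on the log2 scale (SE 0.28, 95% interval -0.18 to 1.13, unadjusted p 0.131 and adjusted p 1 by edgeR). A lincRNA gene, Gm17322, overlaps Cyp11a1 on the same strand.

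**Figure D2:**
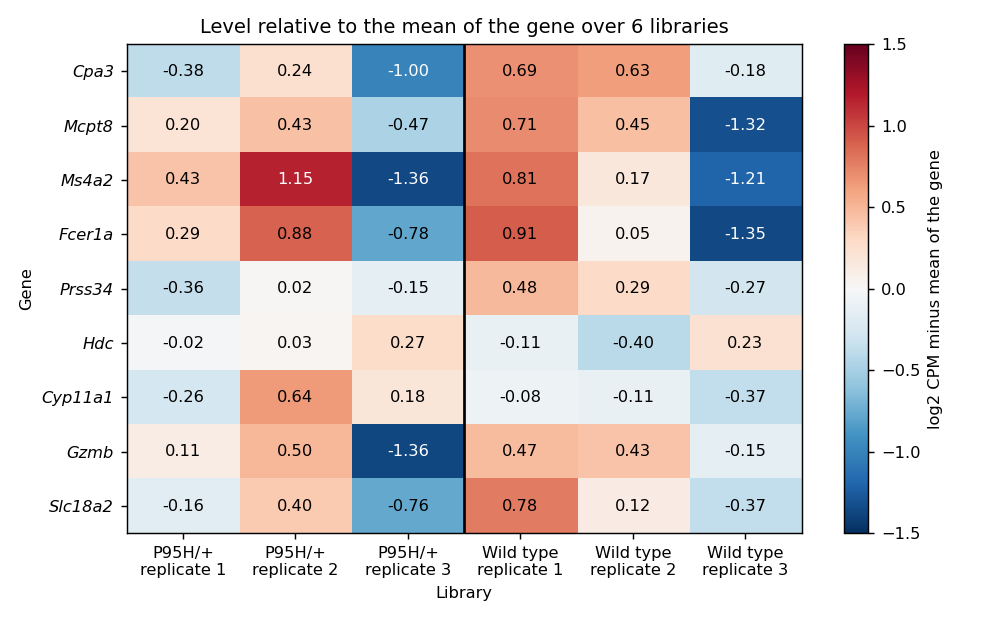
Each cell gives log2 CPM of a gene in a library minus the mean log2 CPM of that gene over the 6 libraries, with P95H/+ libraries left of the black line and wild type right of it. Blue cells fill most of both replicate 3 columns, down to -1.36 for Ms4a2 and Gzmb in P95H/+, while Hdc is positive in both.

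Libraries held similar places for several of the 9 genes. Wild-type replicate 1 was the highest library for 5 of them (Cpa3, Mcpt8, Fcer1a, Prss34 and Slc18a2), a place it held for 22.5% of 14886 genes with a mean of at least 1 CPM, and P95H/+ replicate 2 for 3 (Ms4a2, Cyp11a1 and Gzmb), against 9.71% of those genes. P95H/+ replicate 3 was the lowest for 4 of the 9 and for 35.8% of those genes, and wild-type replicate 3 for 3 of the 9 and for 15.8%. Both replicate 3 libraries lay below the other 4 for 5 of the 9, a pattern of 32.1% of those 14886 genes. Between the means of replicate 3 and of replicates 1 and 2, the median log2 difference was -0.88 over the 9 genes, 8 of them negative, and -0.07 over all genes tested, 53.4% of them negative.

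The GC content of the longest transcript ran from 37.6% for Ms4a2 to 54.5% for Prss34, and the levels were also computed with the trend on GC content removed. Corrected CPM also carry the TMM scaling, which the other CPM values do not, so the 2 differ by more than the trend. At the GC content of Ms4a2 that trend was -0.73 on the log2 scale for P95H/+ replicate 3 and -0.51 for wild-type replicate 3. With it removed, Ms4a2 was at 29.1, 45.9 and 17.8 CPM in P95H/+ and at 34.6, 24.6 and 15.4 CPM in wild type. The replicate 3 libraries were still the lowest of both genotypes. For Mcpt8, with a GC content of 48.5%, the trend was only -0.05 and 0.01 in these 2 libraries, and its corrected levels there were 37.99 CPM for P95H/+ and 18.3 CPM for wild type. In replicates 1 and 2 they were 55.6 and 63.6 CPM for P95H/+ and 75.5 and 65.2 CPM for wild type. Prss34 (GC content 54.5%) was corrected to 79.2, 100.2 and 65.2 CPM in P95H/+ and to 135.7, 116.5 and 59.6 CPM in wild type. Both replicate 3 libraries of Prss34 then lay below all the others, whereas P95H/+ replicate 1 was lowest before correction. Corrected levels of Cpa3 (GC content 41.3%) were 29.8, 44.9 and 33.1 CPM in P95H/+ and 58.2, 60.5 and 47.6 CPM in wild type. These no longer overlapped, and P95H/+ replicate 1 was then lowest, with a log2 fold change of -0.62 (SE 0.19, 95% interval -1.06 to -0.18, unadjusted p 0.0118 and adjusted p 0.999 by edgeR). Corrected levels did not overlap for 1 of the 9 genes and for 1938 of the 17144 (11.3%), and the unadjusted p was under 0.05 for the same 1 of the 9 and for 710 of the 17144 (4.14%). With this correction 0 of the 9 genes passed the adjusted test, and the log2 fold changes lay between -0.62 for Cpa3 and 0.47 for Cyp11a1.

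Without replicate 3 of both genotypes, edgeR's test of 2 against 2 libraries called 144 of 17371 genes (0.829%) and 0 of the 9. At an unadjusted p under 0.05 there were 3 of the 9 and 2707 of the 17371 (15.6%). For Prss34 the log2 fold change was -0.52 (SE 0.12, unadjusted p 0.00222, adjusted p 0.0988), for Cpa3 -0.66 (SE 0.19, unadjusted p 0.0164, adjusted p 0.219) and for Hdc 0.29 (SE 0.10, unadjusted p 0.0149, adjusted p 0.212), each by edgeR. For these 3 genes and for Mcpt8 (log2 fold change -0.23, SE 0.11, adjusted p 0.331 by edgeR) the 2 P95H/+ libraries lay on one side of the 2 wild-type ones, which makes 4 of the 9 genes, as against 8358 of the 17371 (48.1%). The other 5 had log2 fold changes of 0.34 (Ms4a2), 0.10 (Fcer1a), 0.37 (Cyp11a1), -0.11 (Gzmb) and -0.31 (Slc18a2). Between the single replicate 3 libraries, which allow no test, the log2 ratio of P95H/+ over wild type was -0.82 for Cpa3, 0.12 for Prss34, 0.05 for Hdc and 0.85 for Mcpt8, so that Cpa3 alone of these 4 differed by a similar size and in the same direction in both parts. The direction of Prss34 and Mcpt8 was opposite in the 2 parts. For the other 5 genes that ratio was -0.39 (Slc18a2), 0.54 (Cyp11a1), 0.57 (Fcer1a), -1.22 (Gzmb) and -0.15 (Ms4a2). Slc18a2 and Cyp11a1 thus also kept their direction at a similar size. Fcer1a and Gzmb kept theirs at a larger size in replicate 3, and Ms4a2 reversed.

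**Figure D3:**
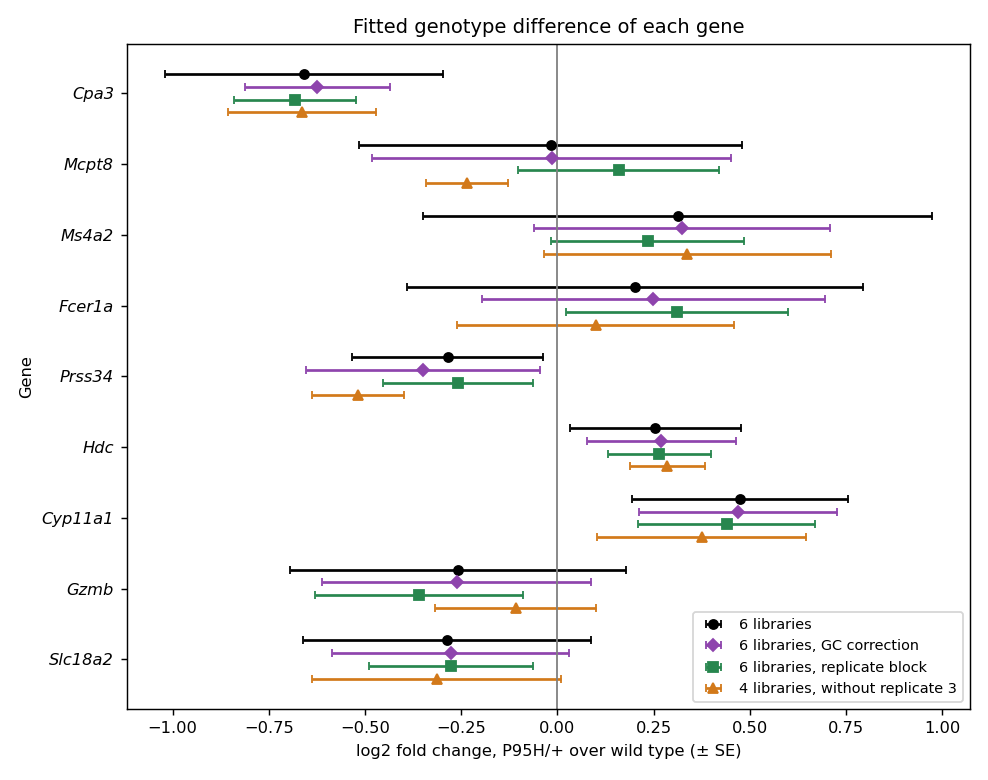
Log2 fold change of P95H/+ over wild type with its SE for each gene, fitted by edgeR to all 6 libraries, to the same with a GC correction, with the replicate number as a block, and without replicate 3 of both genotypes. In all 4 fits Cpa3, Prss34, Gzmb and Slc18a2 lie left of 0 and Hdc, Cyp11a1, Ms4a2 and Fcer1a right of 0. Mcpt8 lies on both sides, and none of the values passed an adjusted p of 0.05.

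Sex and age are unevenly spread over the genotypes. Among females, with 2 P95H/+ libraries and the single 54-week wild-type library, P95H/+ was lower for 6 of the 9 genes, and among males, with 1 P95H/+ and 2 wild-type libraries, for 7. Cpa3 had log2 ratios of -0.72 among females and -1.28 among males, Slc18a2 of -0.63 and -0.66, Hdc of 0.12 and 0.33, and Cyp11a1 of 0.33 and 0.41. Ms4a2 had 0.02 among females and -0.997 among males. The male P95H/+ library is replicate 3, so sex and the deviation of that library cannot be told apart within P95H/+. Wild-type replicate 2, also male, had a median log2 deviation of 0.28 where transcripts had 40% GC or less. Against wild-type replicate 3 alone, the log2 ratio of the male P95H/+ library was -0.82 for Cpa3 and -0.15 for Ms4a2. The counts of genes lower in P95H/+ within a sex were not computed over all genes. With sex in the model, edgeR called 0 genes, Cpa3 had a log2 fold change of -0.91 (adjusted p 0.785 by edgeR), and Ms4a2 and Fcer1a turned to -0.39 and -0.22. Age and library cannot be told apart for wild-type replicate 1, and without it Cpa3 had -0.52, Ms4a2 0.81 and Fcer1a 0.81.

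Levels can be set against each other only per length. Scaled by the union of annotated exons and averaged over the 6 libraries, Prss34 stood at 74.3 ± 17.6 CPM per kb, Mcpt8 at 52.9 ± 22.1, Cpa3 at 31.5 ± 12.9, Hdc at 24.1 ± 3.93, Fcer1a at 13.0 ± 6.96, Ms4a2 at 11.2 ± 6.71, Slc18a2 at 10.1 ± 3.88, Gzmb at 3.08 ± 1.12 and Cyp11a1 at 2.06 ± 0.572 (SD, n = 6). Prss34 was above Mcpt8, Hdc above Fcer1a, Fcer1a above Ms4a2 and Slc18a2 above Gzmb in all 6 libraries, whereas Cpa3 was above Hdc in only 3 and Ms4a2 above Slc18a2 in 2. The order depends on the length used. By the principal transcript, Hdc had 2392 in place of 6389 bases and Ms4a2 1010 in place of 2813 bases. Hdc then stood at 64.4 ± 10.5 CPM per kb and Ms4a2 at 31.2 ± 18.7 CPM per kb. Prss34 was above Hdc in only 3 of 6 libraries, and the mean of Ms4a2 lay above that of Fcer1a (13.0 CPM per kb). Cyp11a1, with 2120 in place of 4804 bases, stood at 4.68 ± 1.30 CPM per kb and was above Gzmb in 6 of 6 libraries. Slc18a2 was above Fcer1a in 4 of 6 libraries.

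Of 10 other granule proteases listed for mast cells, 4 had a row in the counts. Cma2, Mcpt1, Mcpt2, Mcpt4, Mcpt9 and Tpsb2 had none, and Cma1, Tpsab1 and Tpsg1 were at the limit of detection. Cma1, a chymase, was at 0.0923, 0.309 and 0 CPM in P95H/+ and at 0.0435, 0.190 and 0.237 CPM in wild type. Tpsab1, a tryptase, had 0 counts in the P95H/+ libraries, where 3 counts would be 0.133 to 0.279 CPM, and at most 0.0594 CPM in wild type. Tpsg1 was likewise at most 0.0930 CPM in P95H/+ and 0 in wild type. The only gene of this list with enough counts to test was Ctsg, cathepsin G, which granulocyte precursors also make, with 783 ± 214 CPM for P95H/+ and 745 ± 93.8 CPM for wild type (SD, n = 3 each). In both genotypes Mcpt8, Prss34 and Cpa3 were thus well detected, while Cma1, Tpsab1 and Tpsg1 were near 0. Proteases without a row, Mcpt4 and Tpsb2 among them, could not be compared, and the kind of mast cell was not tested.

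Genes that act beside the 9 showed no called difference over all 6 libraries either. Of the surface receptors of mast cells and basophils, 15 of 19 were tested and 0 passed, 11 being positive, with a median log2 fold change of 0.07 (0.03 without replicate 3 of both genotypes). Cd200r3, an activating receptor of basophils, was at 8.58, 14.4 and 5.12 CPM in P95H/+ and at 9.21, 6.07 and 2.32 CPM in wild type, so that P95H/+ replicate 2 and wild-type replicate 1 were again highest and replicate 3 lowest within each genotype. Its log2 fold change was 0.74 (SE 0.54) and 0.62 without replicate 3. Crlf2, the TSLP receptor, had 0.50 (SE 0.33), with 125 CPM in P95H/+ replicate 3 against 53.2 to 72.4 CPM in the other 5 libraries, and 0.16 without replicate 3. Of 23 IgE receptor signalling genes tested, 0 passed, 13 were positive and the median was 0.06 (-0.07 without replicate 3). Lat2, an adaptor, was at -0.23 (SE 0.22) and at -0.22 without replicate 3. Rasgrp4, a Ras activator of mast cells, was at 1.15 (SE 0.95) with 24.8 CPM in P95H/+ replicate 3 against 1.75 to 5.65 CPM in the other 5 libraries, and at -0.97 without replicate 3. Without replicate 3 of both genotypes 1 of the 23 was called, Plcg1, a phospholipase C, against 144 of 17371 genes (0.829%). It was lower in P95H/+ by edgeR (log2 fold change -0.45, SE 0.08, adjusted p 0.0467) and had -0.15 (SE 0.27) over all 6 libraries. Plcg1 is named because it was the 1 call.

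The list of mediators, covering eicosanoid enzymes, granule release and cytokines, had 23 of 26 tested and 0 passed, 16 were positive and the median was 0.09, also without replicate 3. On the log2 scale, Ltc4s, leukotriene C4 synthase, was at -0.59 (SE 0.37) and Alox5, which opens leukotriene synthesis, at 0.48 (SE 0.34). Without replicate 3 they were at -0.35 and 0.20. Il4, a cytokine of basophils, averaged 1.06 CPM over the P95H/+ libraries and 1.01 CPM over those of wild type. Of the transcription factors 20 of 21 were tested and 0 passed, 15 were positive and the median was 0.06 (-0.05 without replicate 3). Hes1, a Notch target, had -0.87 (SE 0.48) and Cebpb, a C/EBP factor, 0.87 (SE 0.52), and without replicate 3 Hes1 had -1.22 and Cebpb -0.04. Gata2, which basophil and mast cell precursors need, was at 112, 182 and 281 CPM in P95H/+ and at 208, 178 and 178 CPM in wild type, and Mitf, a factor of mast cells, at 13.3, 18.4 and 7.44 CPM in P95H/+ and at 15.8, 15.2 and 9.91 CPM in wild type.

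**Figure D4:**
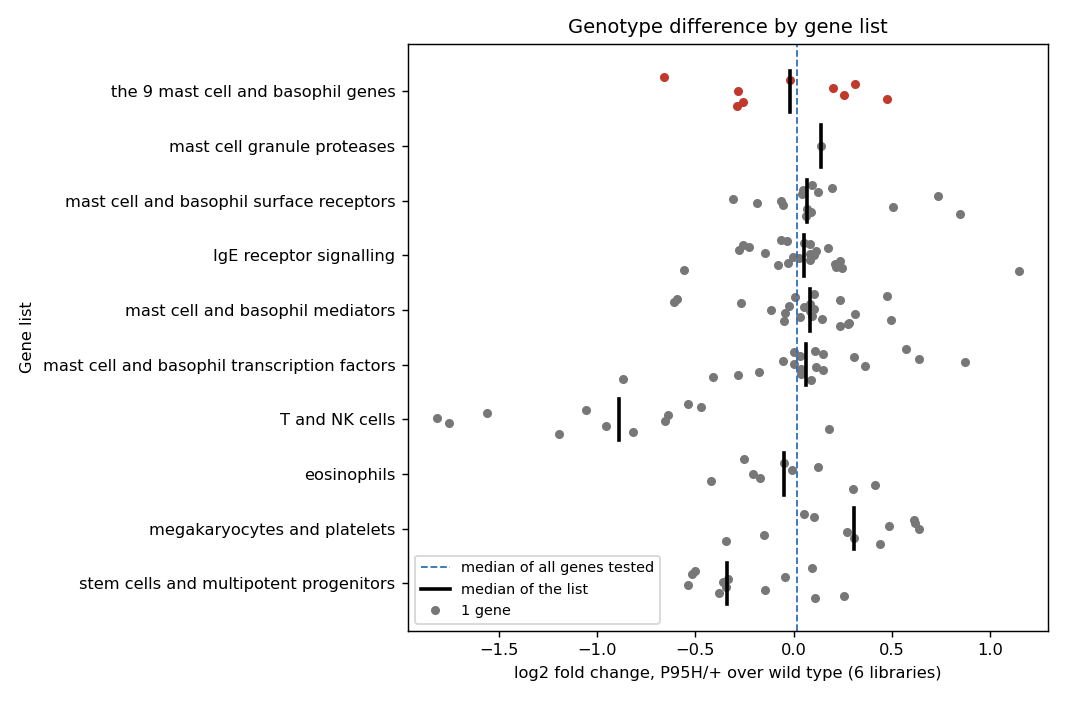
Log2 fold change of P95H/+ over wild type in the 6-library fit for each tested gene of a list, 1 point per gene, with the list's median as a black bar and the median of all genes tested (0.02) as a dashed line. The 9 mast cell and basophil genes scatter around 0 with a median of -0.02, the T and NK cell list lies to the left at -0.89, and no point passed an adjusted p of 0.05.

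Markers of other cells that also use some of the 9 genes, or that could be among the sorted cells, were set beside them. The T and NK cell list, relevant to Gzmb, summed to 188 to 250.4 CPM in P95H/+ and 177 to 312 CPM in wild type, of which Nkg7 made up 137 to 297 CPM. Of its 12 tested genes 0 passed, 11 were negative and the median was -0.89 (-1.12 without replicate 3). Trbc1 (-1.56, SE 0.43, and -1.68 without replicate 3) and Klrd1 (-1.75, SE 0.52, and -2.11) had the smallest p. Both were at low levels. Trbc1 was at 0.37 to 0.71 CPM in P95H/+ and 1.07 to 2.65 CPM in wild type, and Klrd1 at 0.22 to 0.32 and 0.475 to 1.52 CPM. Cd3e was at most 0.348 CPM in every library. Other granzymes and perforin had 2 of 10 genes tested and 0 passed, Gzmm at 0.39 (0.24 without replicate 3) and Prf1 at -0.46 (below the count filter without replicate 3), and Gzma was at most 0.332 CPM. The steroid list, relevant to Cyp11a1, had 5 of 11 tested and 0 passed, a median of 0.04, with Fdxr at 0.20 and Scarb1 at 0.17 (0.08 and 0.15 without replicate 3), while Cyp17a1 and Cyp11b1 were at most 0.297 CPM. The megakaryocyte list, whose cells also use Slc18a2, had 11 of 12 tested, 0 passed and a median of 0.31 (-0.02 without replicate 3), with Gp1ba at 0.61 and Gp9 at 0.64, against 0.23 and 0.06 without replicate 3. Their part in the values of the 9 genes was not tested.

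The remaining marker lists had 0 genes past the test over all 6 libraries. Eosinophil genes had a median of -0.05 and of 0.96 without replicate 3 (Siglecf 0.30 and 0.27, Il5ra -0.42 and -0.08), and they summed to 368 to 383 CPM in P95H/+ and to 212, 190.1 and 873 CPM in wild-type replicates 1, 2 and 3. Without replicate 3 of both genotypes, which leaves out the wild-type library at 873 CPM, 4 of these 9 genes were called, against 144 of 17371 genes (0.829%). These were Epx, Prg2, Prg3 and Ear6, all higher in P95H/+ (1.20, 0.96, 1.03 and 0.87 on the log2 scale). Over all 6 libraries they had -0.25, -0.05, 0.12 and -0.17. Neutrophil genes had a median of 0.42 (Cxcr2 0.62, Mmp9 1.78), which turned to -0.42 without replicate 3 (Cxcr2 0.09, Mmp9 -1.90). Mpo, Elane and Prtn3, the most abundant of that list, were positive in both fits (0.13, 0.10 and 0.30, then 0.27, 0.36 and 0.44). S100a8 was also positive without replicate 3 (0.14), whereas Camp, Ltf, Ngp, Ly6g, S100a9 and Mmp8 were negative like Mmp9. Mmp9 was at 218 CPM in P95H/+ replicate 3, against 4.06 to 36.2 CPM in the other 5 libraries. Erythroid genes had 0.28 (Car2 0.32, Klf1 0.73), which turned to -0.55 without replicate 3 (Car2 0.09, Klf1 0.26), with 1 gene called, Slc4a1, at -1.10 there and at 0.82 over all 6 libraries. With all libraries and then without replicate 3, monocyte and dendritic cell genes had medians of -0.09 and -0.32 (Adgre1 -0.36 and -0.37, Itgax -0.65 and -1.17). In the same order, B cell genes had -0.03 and -0.80 (Igkc 0.81 and 0.64, Rag1 -1.01 and -1.93), and stem and multipotent progenitor genes -0.34 and -0.40 (Procr -0.52 and -0.78, Ly6a -0.50 and -0.26). Erythroid genes summed to 2283 CPM in P95H/+ replicate 3, against 871 to 1467 CPM in the other 5 libraries. Neutrophil genes summed to 10350 CPM in P95H/+ replicate 3 and 10880 CPM in wild-type replicate 3, against 6802 to 8665 CPM in the other 4, in the libraries where 5 of the 9 genes were lowest. Whether these markers bear on the levels of the 9 genes was not tested.

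The genes whose levels over the 6 libraries were nearest to the mean profile of the 9 were Hdac9, D130019J16Rik, Ppp2r3a, Zeb2os and Adgrl4, with root mean square differences of 0.019, 0.060, 0.068, 0.078 and 0.083 in log2 CPM. Hdac9 was at 11.7, 16.2 and 7.63 CPM in P95H/+ and at 16.5, 13.0 and 7.66 CPM in wild type. With 6 libraries and a profile low in both replicate 3 libraries, such likeness is a description of these libraries.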

How the data were processed

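Per the labels, libraries were made from ribosome-depleted total RNA with a stranded kit, and both ends of fragments were read. The authors deposited raw counts per gene and 2 tables of CPM. The submitters' processing notes list mm10 and edgeR, limma, Subread 1.5.1 with featureCounts, Picard 1.96, STAR 2.5.3a, cutadapt and Trim Galore, with no roles. The strand setting of counting is not given in the sources used here. The deposited CPM equalled count over library total (unfiltered table) or over the total of the 15466 genes kept (filtered table) within 5e-04, and results start from the raw counts.

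The test of P95H/+ against wild type was that of edgeR 4.0.16 under R 4.3.3 (TMM, filterByExpr, robust quasi-likelihood F test, Benjamini-Hochberg over all tested genes). SE and intervals of log2 fold changes follow from the F statistic. This procedure was tested on simulated data. Coordinates, exon lengths and GC content came from GENCODE M21, which holds 25878 of the identifiers. Alternatives used DESeq2 1.42.0, limma 3.58.1 (voom, with and without sample quality weights), other scalings, no filter, sex, the replicate number, a GC correction (natural spline with 4 degrees of freedom as an offset) and left-out libraries. Same-numbered libraries deviated together from their group means (r = 0.372, 0.348 and 0.613 across 17144 genes). P95H/+ replicate 1 with wild-type replicate 2 (0.386) and P95H/+ replicate 2 with wild-type replicate 1 (0.463) did so more strongly than the same-numbered replicates 1 and 2. For these replicates the block therefore rests on the numbering alone.

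The 9 genes and all lists were chosen with earlier results of these data known. Besides the 9, the text names the 2 genes of each list with the smallest p, since 0 passed, and the 5 genes with a mean of at least 5 CPM nearest in profile. Other genes were named after their values were seen. List genes without a row in the counts are not analysed here, such as Mcpt4 and Tpsb2.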

Additional observations from a re-analysis of the deposited data

How the results depend on the processing

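No setting called any of the 9 genes. The number of genes called was 0 in the 6-library fit, 8 with DESeq2, 97 with limma voom with sample quality weights, 1 with the replicate block (not one of the 9), 144 without replicate 3 of both genotypes and 0 to 1 when 1 library was left out. Of 144 log2 fold changes of the 9 genes under other settings, 15 turned direction and 129 kept it. Cpa3, Prss34, Hdc and Cyp11a1 kept theirs in all 16 settings, between -0.997 and -0.42, -0.52 and -0.13, 0.13 and 0.42, and 0.24 and 0.66. Mcpt8, at -0.02, turned to 0.013 with DESeq2's size factors, 0.012 with DESeq2, 0.19 with limma voom and 0.16 with the replicate block. With sex in the model Ms4a2 turned to -0.39 and Fcer1a to -0.22. Leaving out 1 library gave -0.42 to 0.33 for Mcpt8, -0.26 to 0.81 for Ms4a2, -0.20 to 0.81 for Fcer1a, -0.61 to 0.0802 for Gzmb and -0.59 to 0.0615 for Slc18a2. The cause was not tested. Levels per kb by the principal transcript were added after the data were seen. Gzmb, with 17 counts in P95H/+ replicate 3, is the gene most limited by depth.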
